A study of Mus musculus with 6 samples.

Results

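A set of 10 genes known to be switched on by steroid hormone receptors was followed in the heart of mice given progesterone: Fkbp5, Tsc22d3, Zbtb16, Sgk1, Hif3a, Klf9, Mt1, Mt2, Errfi1 and Dusp1. They were found through the array's gene annotation, taking each probe set that the annotation gives to exactly 1 gene symbol and whose symbol is one of these. That gave 30 probe sets for the 10 genes, of 45037 probe sets and 18193 genes in all, and each of the 10 genes had at least 1 probe set. The arrays were Affymetrix Mouse Genome 430 2.0, hybridised with total RNA from the apex of the ventricles.

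The mice were transgenic and made to express PR-M, a human progesterone receptor of the mitochondrion. By label, 3 arrays are PR-M expressing and 3 are PR-M non-expressing. Both groups received 2.5 mg of progesterone in oil under the skin for 19 to 21 days, so these genes were read under the hormone in all 6 arrays, and no array without progesterone was analysed here. The comparison is therefore of PR-M under progesterone and not of progesterone itself. The labels give no promoter, founder line, strain, age or sex, do not say how expression of PR-M was established, and do not say whether each array came from its own animal. Each p-value here is thus set against the spread of these samples, which may be technical, and the 3 arrays in each group limit the precision.

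Steroid hormones enter cells and bind receptors of the nuclear receptor family, which then attach to DNA and switch genes on or off. The glucocorticoid, mineralocorticoid and progesterone receptors recognise nearly the same DNA motif, an inverted repeat of a short sequence, so several of their target genes are shared. In the heart, whose muscle cells contain the glucocorticoid and mineralocorticoid receptors, Fkbp5, Tsc22d3, Zbtb16, Sgk1, Klf9 and Per1 are widely used as readouts of hormone action. PR-M, as described in other work, lacks the DNA-binding part of the nuclear progesterone receptor. Several of the 10 genes also answer to other signals: metallothioneins to zinc, Dusp1 and Errfi1 to growth factors and to cyclic AMP, and Hif3a to low oxygen.

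The start regions of 5 of the genes, which hold motifs named for these inputs, are printed. Those of Sgk1, Dusp1 and Errfi1 were chosen because these varied most between arrays among the genes with such a region in the table. Those of Mt1 and Mt2 were chosen because, within the non-expressing group, these were highest in replicate 1. Fkbp5 and Klf9 were also highest in that array of the group, and their regions are not printed. The sequences run from 250 bases before to 50 bases after a transcript start and are from RefSeq, build GRCm38.p6, in the direction of the gene. Of the 10 genes 9 are in the RefSeq table of such regions, with 17 start regions in all, and Zbtb16 is not. Capitals mark the full glucocorticoid response element in Sgk1, the cyclic AMP response element in Dusp1 and Errfi1, and the core of the metal response element in Mt1 and Mt2. Sgk1 and Errfi1 also have start regions without the element marked here, and only the region that holds it is printed.
Sgk1 chr10:21993640-21993939 (+ strand): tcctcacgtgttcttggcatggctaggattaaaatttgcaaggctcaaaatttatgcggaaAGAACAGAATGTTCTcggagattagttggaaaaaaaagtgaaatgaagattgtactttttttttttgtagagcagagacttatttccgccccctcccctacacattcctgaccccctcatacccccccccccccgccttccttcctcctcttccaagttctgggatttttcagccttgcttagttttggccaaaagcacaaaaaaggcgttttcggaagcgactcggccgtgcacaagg
Dusp1 chr17:26508423-26508722 (- strand): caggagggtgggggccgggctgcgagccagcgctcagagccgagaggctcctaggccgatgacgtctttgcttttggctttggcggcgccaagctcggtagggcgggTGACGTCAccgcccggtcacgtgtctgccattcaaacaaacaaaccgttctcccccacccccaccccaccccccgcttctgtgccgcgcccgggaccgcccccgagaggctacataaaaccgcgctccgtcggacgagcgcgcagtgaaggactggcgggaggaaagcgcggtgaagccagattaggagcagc
Errfi1 chr4:150854820-150855119 (+ strand): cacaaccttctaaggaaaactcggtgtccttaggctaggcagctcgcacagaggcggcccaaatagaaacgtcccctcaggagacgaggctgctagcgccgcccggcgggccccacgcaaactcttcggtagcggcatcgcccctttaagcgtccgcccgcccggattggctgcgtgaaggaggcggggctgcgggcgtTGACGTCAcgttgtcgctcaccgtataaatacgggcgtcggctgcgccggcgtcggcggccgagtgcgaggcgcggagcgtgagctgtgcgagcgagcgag
Mt1 chr8:94178839-94179138 (+ strand): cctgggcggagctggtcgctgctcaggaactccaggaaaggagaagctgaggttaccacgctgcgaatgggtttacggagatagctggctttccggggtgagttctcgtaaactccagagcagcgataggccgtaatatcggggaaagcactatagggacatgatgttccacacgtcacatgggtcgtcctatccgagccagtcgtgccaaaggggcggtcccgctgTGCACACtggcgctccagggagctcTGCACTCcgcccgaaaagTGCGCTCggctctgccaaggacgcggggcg
Mt2 chr8:94172368-94172667 (+ strand): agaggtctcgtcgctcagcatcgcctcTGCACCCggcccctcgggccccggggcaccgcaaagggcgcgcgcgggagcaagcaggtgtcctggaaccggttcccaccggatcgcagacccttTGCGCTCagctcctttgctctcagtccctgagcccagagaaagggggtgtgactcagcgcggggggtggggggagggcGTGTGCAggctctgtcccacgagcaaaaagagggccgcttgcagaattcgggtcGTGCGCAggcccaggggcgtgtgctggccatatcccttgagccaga

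The full glucocorticoid response element was searched as AGAACA, then any 3 bases, then TGTTCT, a pattern that reads the same on both strands. It was in 1 of the 17 regions, the one of Sgk1 that is printed, at -189 to -175 from that start, where it reads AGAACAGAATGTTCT. Only 3 of the 32851 start regions in the table hold it (0.00913%). The single arm AGAACA, searched on both strands and contained in the full element, is common and was in 19% of all regions. It was in 4 of the 17 regions, namely 3 of the 6 regions of Sgk1 and 1 of the 3 of Tsc22d3. The cyclic AMP response element TGACGTCA, which reads the same on both strands, was in 1.79% of all regions and in 2 of the 17. It lay at -143 to -136 in Dusp1 and at -51 to -44 in Errfi1. The metal response core was searched on both strands as TGCACNC (in 12.6% of all regions) and as TGCGCNC (in 15.4%). Mt1 had 3 such cores and Mt2 had 4, and Dusp1, Hif3a and 1 region of Sgk1 had 1 each. These matches describe the letters in a short window and do not show that a factor binds there. Nor does a missing match show that a gene lacks such an element outside the window.

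No probe set of the 10 genes passed the test between the groups. Differences on the log2 scale, expressing minus non-expressing, ran from -0.33 for Sgk1 to 0.35 for a probe set of Zbtb16, with a median over the 30 of -0.03 beside -0.02 over all 45037 probe sets. Of the 30 differences 12 were above 0 and 18 below. The lowest adjusted p was 0.421 (limma, Benjamini-Hochberg over 45037 probe sets), and 0 of 30 had an unadjusted p under 0.05. Over all probe sets 0.0133% passed and 12.2% had an unadjusted p under 0.05. The groups did not overlap in 2 of the 30 probe sets (6.67%), a dim one of Fkbp5 and a dim one of Hif3a, beside 18.6% of all probe sets. With 1 probe set for each gene, the one of highest mean, 0 of 10 passed, with a lowest adjusted p of 0.571 for Hif3a in limma over 18193 genes, of which 0.022% passed. Of the 10 genes 0 had an unadjusted p under 0.05, beside 12.6% of all genes, and the groups overlapped in each of the 10, beside 19% of all genes in which they did not.

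A p that misses the threshold does not show equal levels, so the 95% intervals of the differences matter here. For 25 of the 30 probe sets the interval stayed within a 1.5-fold change either way, and for 29 within 2-fold. The 5 that reached past 1.5-fold were the 3 probe sets of Zbtb16, the single one of Sgk1 and the brighter one of Errfi1. A difference of 1.5-fold therefore lay outside the interval for Fkbp5, Tsc22d3, Hif3a, Klf9, Mt1, Mt2 and Dusp1, taking the probe set with the highest mean, and inside it for Zbtb16, Sgk1 and Errfi1.

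**Figure D1:**
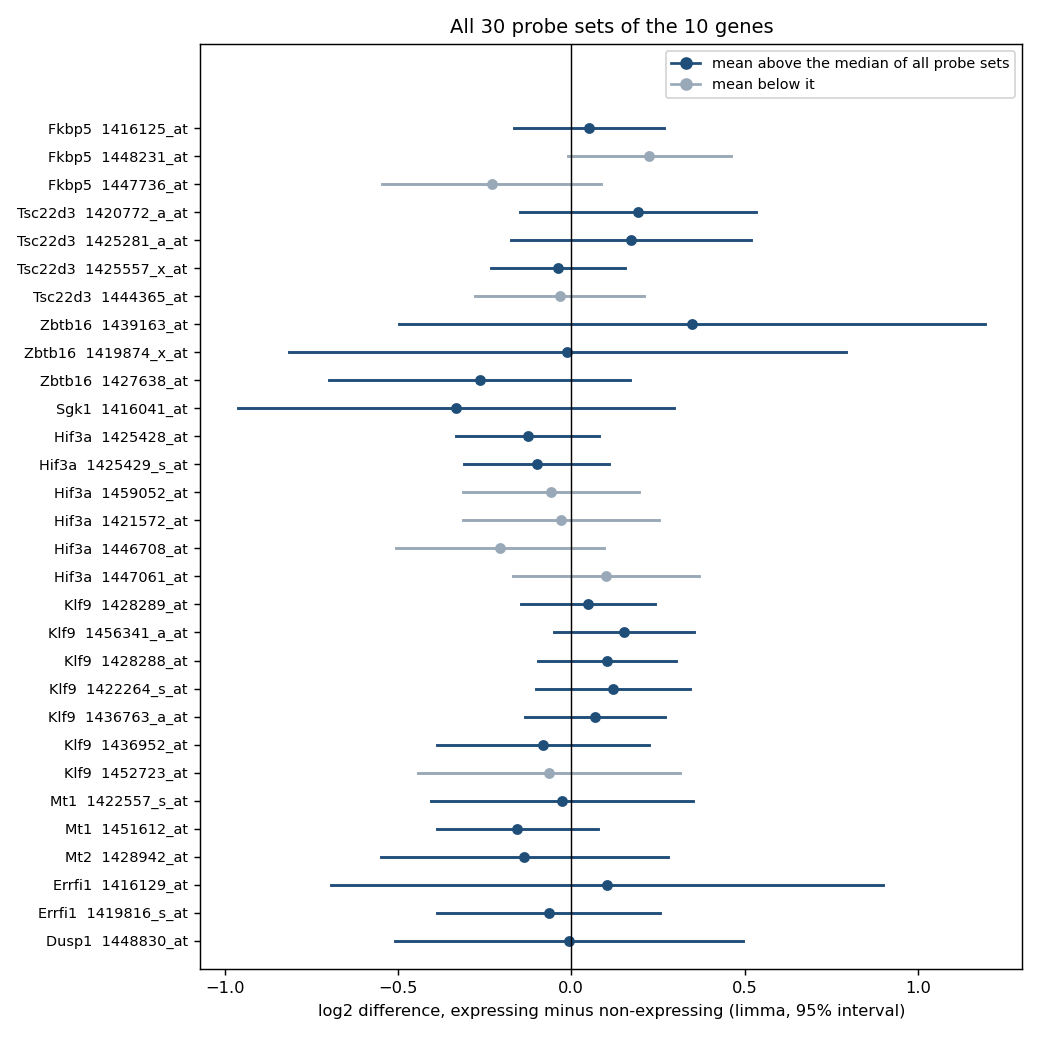
Log2 difference of each of the 30 probe sets, expressing minus non-expressing, with its 95% interval from limma (3 arrays in each group). Each interval holds 0, and the widest belong to Zbtb16, Errfi1 and Sgk1, which also varied most between arrays of the same group.

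The regulators of the receptor itself come first. Fkbp5 encodes a partner of the HSP90 chaperone that lowers the affinity of the glucocorticoid receptor for its hormone, and it is itself among the most sensitive targets of that receptor. Its brightest probe set, 1416125_at, was at 7.93, 8.12 and 8.18 in the expressing arrays and at 8.11, 8.04 and 7.92 in the non-expressing arrays. The groups overlapped, with means of 8.07 ± 0.13 and 8.02 ± 0.10 (SD, n = 3 each). The difference was 0.05 (SE 0.09, limma adjusted p 0.865), a fold of 1.04 with a 95% interval from 0.891 to 1.20.

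The other 2 probe sets of Fkbp5 were dim, which means a mean below 5.77, the median of the probe set means. Probe set 1448231_at, designed from the same sequence record as the brightest one, was at 5.67, 5.70 and 5.998 against 5.57, 5.51 and 5.61. The 3 expressing arrays lay above the 3 others, and the difference of 0.23 (SE 0.10) had the lowest p of the 30, 0.0569 unadjusted and 0.421 adjusted in limma. Probe set 1447736_at differed the other way, by -0.23 (adjusted p 0.530 in limma), with overlap. The 3 probe sets of this gene thus gave differences of both signs, and none passed.

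Tsc22d3 encodes GILZ, a leucine zipper protein that mediates part of the anti-inflammatory action of glucocorticoids. Probe set 1420772_a_at was at 10.14, 10.48 and 10.70 in the expressing and at 10.17, 10.45 and 10.13 in the non-expressing arrays. Both groups had an array near 10.1 and an array near 10.5, and expressing replicate 3 was the highest of the 6. The difference was 0.19 (SE 0.15, limma adjusted p 0.628), a fold of 1.14 with an interval from 0.903 to 1.45. The next probe set, 1425281_a_at, differed by 0.17 and was likewise highest in expressing replicate 3 and non-expressing replicate 2, at 8.73 and 8.57. The remaining 2, 1425557_x_at and the dim 1444365_at, differed by -0.04 and -0.03. The ending _a_at marks probes shared by transcripts of 1 gene, while _s_at and _x_at mark probes that can also match other sequences, so these read their gene less specifically.

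Zbtb16 encodes PLZF, a zinc finger repressor of transcription that is strongly induced by glucocorticoids and progestins in many cells. It varied the most between arrays. Probe set 1439163_at was at 8.84, 9.65 and 10.49 in the expressing and at 9.00, 9.75 and 9.18 in the non-expressing arrays. The lowest and the highest of the 6 arrays were both in the expressing group, 3.15-fold apart, so the non-expressing range lay inside the expressing one. The means were 9.66 ± 0.83 and 9.31 ± 0.39 (SD, n = 3 each), a difference of 0.35 (SE 0.37, limma adjusted p 0.737) with a fold interval from 0.709 to 2.29. Without expressing replicate 3 the difference was -0.07, so its sign rested on that array.

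Probe set 1419874_x_at of Zbtb16 gave the same order of arrays, at 8.01, 8.82 and 9.57 against 8.49, 9.23 and 8.70, and a difference of -0.01. The third, 1427638_at, was lowest in expressing replicate 1 at 5.92 and spanned 6.49 to 6.78 in the other 5 arrays, with a difference of -0.26 (limma adjusted p 0.599). All 3 therefore had expressing replicate 1 as the lowest array, and the differences between groups had both signs.

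Sgk1 encodes a kinase that raises the activity of ion channels and transporters and is a classic early target of the glucocorticoid and mineralocorticoid receptors. Its 1 probe set, 1416041_at, was at 9.44, 9.28 and 9.82 in the expressing and at 9.30, 10.51 and 9.73 in the non-expressing arrays. Non-expressing replicate 2 stood above the rest, and non-expressing replicate 1 lay at the level of the lower expressing arrays. The difference of -0.33 (SE 0.28, limma adjusted p 0.657) had a fold interval from 0.513 to 1.23. Without non-expressing replicate 2 the difference was -0.00088. Sgk1, with the full glucocorticoid response element in 1 of its 6 start regions, was spread over 2.34-fold among the 6 arrays without a separation of the groups.

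The transcription factors Klf9 and Hif3a were far more even. Klf9, a Krüppel-like factor that answers to glucocorticoids, progesterone and thyroid hormone, was at 11.96, 11.92 and 12.11 against 11.99, 11.98 and 11.87 on probe set 1428289_at. The groups overlapped within 1.18-fold, and the difference was 0.05 (SE 0.08, limma adjusted p 0.855, fold interval 0.904 to 1.18). Of its 7 probe sets 6 were above the median, 5 of them, at 8.51 or more in each array, differing by 0.05 to 0.15. The other 2, 1436952_at and 1452723_at, differed by -0.08 and -0.06.

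Hif3a, a subunit of the hypoxia-inducible factors that can restrain the other 2 alpha subunits, was at 7.51, 7.76 and 7.74 against 7.81, 7.76 and 7.82 on probe set 1425428_at. Expressing replicate 1 was the low array and the other 5 lay between 7.74 and 7.82. The difference was -0.13 (SE 0.09, limma adjusted p 0.600, fold interval 0.795 to 1.06). Probe set 1425429_s_at, from the same sequence record, differed by -0.10. The other 4 probe sets of Hif3a were dim, with differences from -0.20 to 0.10. In one of them, 1446708_at, the expressing arrays at 4.20, 4.20 and 4.22 lay just under the non-expressing ones at 4.74, 4.28 and 4.23 (limma adjusted p 0.554).

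The metallothioneins Mt1 and Mt2, small cysteine-rich proteins that bind zinc and copper, are neighbours on chromosome 8 and are induced by metals and by glucocorticoids. Mt1 on probe set 1422557_s_at was at 11.72, 11.74 and 12.07 in the expressing and at 12.24, 11.70 and 11.67 in the non-expressing arrays. Each group had 1 array above 12 and 2 near 11.7. The difference was -0.03 (SE 0.17, limma adjusted p 0.965, fold interval 0.756 to 1.28). The other Mt1 probe set, 1451612_at, differed by -0.16 (limma adjusted p 0.564).

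Mt2 was at 8.93, 9.14 and 9.42 against 9.53, 9.46 and 8.90 on its 1 probe set, 1428942_at. The difference was -0.14 (SE 0.18, limma adjusted p 0.797, fold interval 0.683 to 1.21). Non-expressing replicate 1 was the highest array for both metallothioneins and non-expressing replicate 3 the lowest, and within the expressing group replicate 3 was the highest for both.

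The last pair damps growth factor signals. Errfi1 encodes MIG6, an inhibitor of the epidermal growth factor receptor, and Dusp1 encodes a phosphatase that switches off MAP kinases. Errfi1 on probe set 1416129_at was at 8.74, 8.81 and 9.71 in the expressing and at 8.78, 9.73 and 8.44 in the non-expressing arrays. In each group 1 array was at about 9.7 and 2 were at 8.81 or less, with a range of 1.96-fold in the expressing and 2.45-fold in the non-expressing group. The difference was 0.10 (SE 0.35, limma adjusted p 0.931, fold interval 0.619 to 1.87). The dimmer Errfi1 probe set, 1419816_s_at, differed by -0.06.

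Dusp1 was at 10.74, 10.63 and 10.98 against 10.34, 11.32 and 10.71 on its 1 probe set, 1448830_at. The group means were both 10.8 (SD 0.18 and 0.49, n = 3 each), and the difference was -0.01 (SE 0.22, limma adjusted p 0.995, fold interval 0.704 to 1.41). The lowest and the highest array were both in the non-expressing group, 1.97-fold apart.

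**Figure D2:**
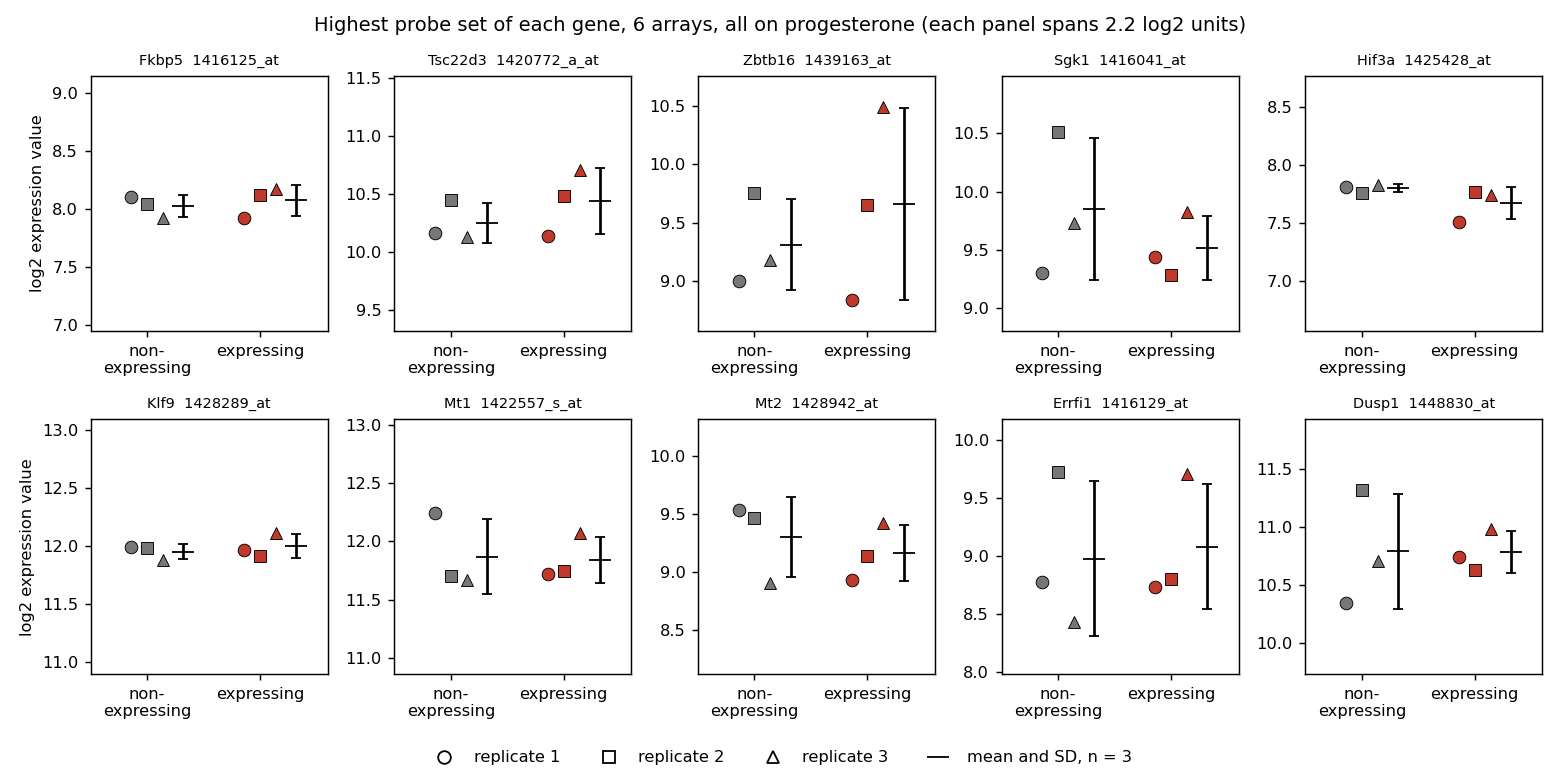
Log2 expression values of the probe set with the highest mean for each gene, by group, with 1 symbol for each replicate number and the group mean with its SD (n = 3 each). Every panel spans the same height, so the even levels of Klf9, Hif3a and Fkbp5 and the wide ones of Zbtb16, Errfi1 and Sgk1 can be read against each other, and in each panel the groups overlap.

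The genes thus fell into an even and a variable set, a division made after their values were seen and described here without a test. The spread was taken as the SD within groups, pooled over both groups, and set against the 22518 probe sets brighter than the median, whose median SD was 0.106. The SD of the highest probe set was 0.09 for Klf9, 0.10 for Hif3a and 0.11 for Fkbp5, exceeded by 65.3%, 52.9% and 43.9% of the brighter probe sets. That is the middle of the array.

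The highest probe sets of the other 7 varied more than most probe sets. For Tsc22d3 the SD was 0.24, exceeded by 7.28% of the brighter probe sets. For Mt1 it was 0.27 (exceeded by 4.80%), for Mt2 0.30 (3.46%) and for Dusp1 0.37 (1.78%). The 3 largest were those of Sgk1 at 0.48 (0.826%), Errfi1 at 0.61 (0.369%) and Zbtb16 at 0.65 (0.302%). The width of the intervals given above follows this spread. The division is one of highest probe sets, and some others above the median went against it. The SD was 0.09 for Tsc22d3 1425557_x_at (exceeded by 65.5%), 0.13 for Mt1 1451612_at (33.6%) and 0.20 for Klf9 1436952_at (11.4%). Others followed it, with 0.24 for Tsc22d3 1425281_a_at, 0.22 for Errfi1 1419816_s_at and 0.61 and 0.31 for Zbtb16. The remaining ones of Klf9 and Hif3a above the median were at 0.09 to 0.12.

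**Figure D3:**
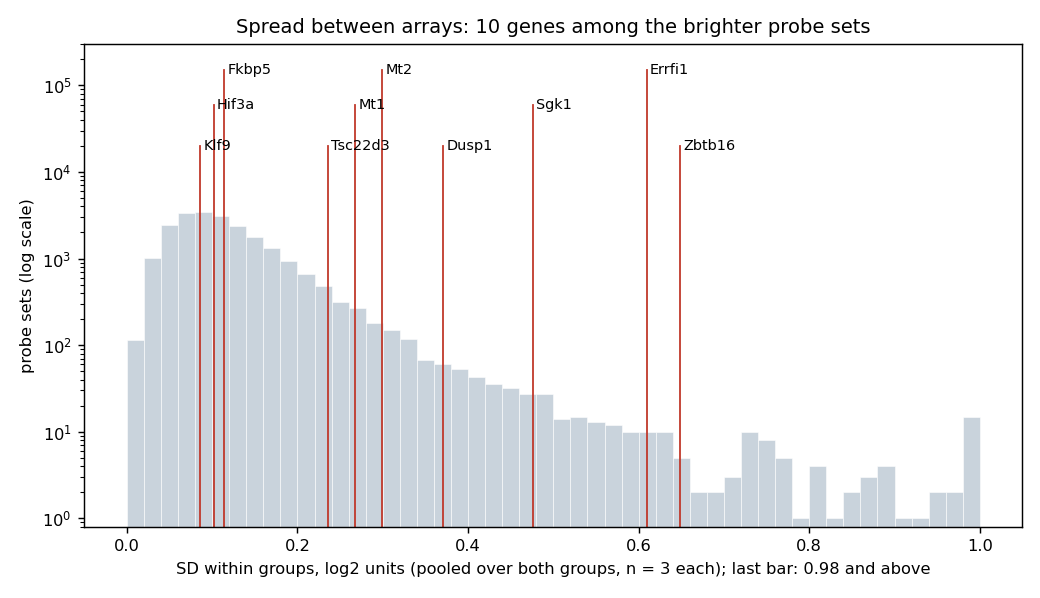
SD between arrays within groups, in log2 units, for the 22518 probe sets brighter than the median (bars, number of probe sets on a log scale), with the highest probe set of each of the 10 genes as a red line. Klf9, Hif3a and Fkbp5 stand at the peak, and Zbtb16, Errfi1 and Sgk1 far out in the tail.

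Of the 7 variable genes 5 were highest in the same 2 arrays, and Mt1 and Mt2 were not. Within the expressing group replicate 3 was the highest array for 9 of the 10 genes, all but Hif3a. Over all 18193 genes it was the highest of its group in 35.2%. Within the non-expressing group replicate 2 was the highest for 5 of the 10, Tsc22d3, Zbtb16, Sgk1, Errfi1 and Dusp1, beside 29.1% of all genes, and replicate 1 was the highest for Fkbp5, Klf9, Mt1 and Mt2. The 5 genes were highest in both of these arrays within their groups, beside 9.56% of all genes. The deviations of these 2 arrays from their group means were 0.62 and 0.75 for Errfi1, 0.83 and 0.44 for Zbtb16, 0.31 and 0.66 for Sgk1, 0.26 and 0.20 for Tsc22d3 and 0.20 and 0.53 for Dusp1. This pair of arrays was singled out after the values were seen, and the genes are not independent of each other. These counts are on the highest probe set of each gene. Among the others, Zbtb16 1419874_x_at, Tsc22d3 1425281_a_at and Errfi1 1419816_s_at had the same 2 highest arrays. Zbtb16 1427638_at was instead lowest of its group in non-expressing replicate 2, at 6.53. Within the expressing group, Tsc22d3 1425557_x_at, its dim 1444365_at and the dim Klf9 1452723_at were highest in replicate 2. Klf9 1422264_s_at was highest there in replicate 1, at 9.08 beside 9.07 in replicate 3.

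**Figure D4:**
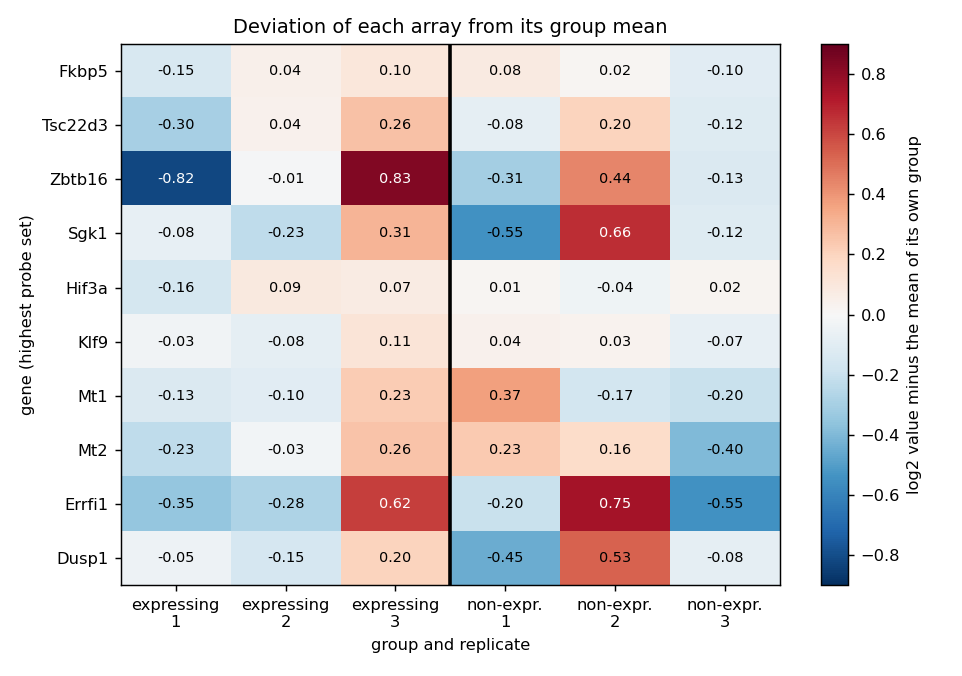
Log2 value of each array minus the mean of its own group, for the highest probe set of each gene. Expressing replicate 3 and non-expressing replicate 2 are the red columns for Tsc22d3, Zbtb16, Sgk1, Errfi1 and Dusp1, while Mt1 and Mt2 are highest in non-expressing replicate 1.

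Among other genes known to answer to glucocorticoids, some but not most were highest in both of the same arrays. Of 36 measured genes of this list, 25 were highest in expressing replicate 3 within the group (69.4%), 21 in non-expressing replicate 2 (58.3%) and 13 in both (36.1%), beside the 9.56% of all genes. Among the 13 were the clock gene Per1, at 8.29, 8.73 and 9.06 against 8.38, 9.17 and 8.26, and Ddit4, an inhibitor of the mTOR kinase, at 8.90, 8.96 and 10.03 against 8.83, 10.32 and 8.95. Ddit4 was named after its values were seen. Of 16 immediate early genes, which answer within minutes to many stimuli, 7 were highest in both arrays (43.8%). Of 17 clock genes 2 were (11.8%), of 12 metal response genes 1 was (8.33%) and of 18 progesterone-responsive genes of reproductive tissue 0 were. The neutrophil genes S100a8 and S100a9, named after their values were seen, were also highest in these 2 arrays of their groups. Of the 6 neutrophil genes measured, 5 were highest in expressing replicate 3, 3 in non-expressing replicate 2 and 3 in non-expressing replicate 1, with 3 highest in both of the 2 arrays. S100a9 was at 7.04, 6.43 and 7.20 against 5.40, 8.83 and 7.50. The mean log2 level of 6 neutrophil genes was 6.02, 5.84 and 6.21 against 5.58, 6.57 and 6.11. That is the order of arrays within each group shown by Sgk1 and Dusp1, but not by Tsc22d3, Zbtb16, Errfi1, Mt1 or Mt2. Neutrophil genes were singled out from the cell type lists after the values were seen. Of 8 fibroblast genes, 6 were highest in expressing replicate 3 and 2 in both arrays, and the same counts held for 8 smooth muscle and pericyte genes. Each other cell type list had 0 or 1 gene highest in both. The part of these cells in the spread of the 10 genes was not tested, and in RNA from whole tissue more cells of a type and more RNA per cell cannot be told apart.

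None of the genes of steroid receptors passed. Nr3c1, the glucocorticoid receptor gene, was at 9.65, 9.60 and 9.54 against 9.51, 9.62 and 9.53, a difference of 0.04 (SE 0.07, limma adjusted p 0.835 over genes). Nr3c2, the mineralocorticoid receptor gene, differed by 0.19 (SE 0.10, limma adjusted p 0.481). The brightest probe set of Pgr, the mouse nuclear progesterone receptor gene, was dim, at 4.59 to 4.66 in the expressing and 4.54 to 4.70 in the non-expressing arrays, and reads nothing of the human transgene unless the sequences are alike. The list has 11 measured genes, and its median was 0.02 beside -0.02 over all genes. Pgrmc1, a membrane-bound progesterone-binding protein gene, had the lowest p, with a difference of 0.24 (SE 0.06, limma adjusted p 0.259) and no overlap.

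None of the lists around these genes held a gene past the threshold of 0.05 (limma, over 18193 genes). The 36 other glucocorticoid-responsive genes had a median difference of -0.05, with 13 above and 23 below 0, and 5 had an unadjusted p under 0.05, 2 higher and 3 lower. Over all genes 56% of the differences were below 0 and 12.6% had an unadjusted p under 0.05, a share close to that of these 5 among 36. The 2 with the lowest p were Txnip, an inhibitor of thioredoxin and of glucose uptake, and Ccn1, a matrix signalling protein gene. Txnip was at 10.52, 10.41 and 10.82 in the expressing and at 10.99, 11.81 and 11.75 in the non-expressing arrays. The groups did not overlap, with a difference of -0.94 (SE 0.22, limma adjusted p 0.201). Ccn1 differed by -0.79 (SE 0.19, limma adjusted p 0.211), also without overlap. Klf15, a Krüppel-like factor of cardiac metabolism induced by glucocorticoids, differed by -0.22 (limma adjusted p 0.649) and Per1 by 0.09 (limma adjusted p 0.916), both with overlap.

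Of 18 progesterone-responsive genes of reproductive tissue 0 passed, with a median of -0.05. Fst, the gene of the activin-binding protein follistatin, had a difference of 0.54 (SE 0.17, limma adjusted p 0.303) at a dim level, and Hand2, a transcription factor gene of heart and uterus, one of 0.37 (limma adjusted p 0.346). Of 12 metal response genes 0 passed, with a median of 0.00. Slc39a8, a zinc importer gene, differed by 0.78 (SE 0.29, limma adjusted p 0.343) with overlap, and Mtf1, the factor that binds the metal response element, by -0.22 (SE 0.09, limma adjusted p 0.355) without overlap.

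Of 13 measured chaperones and coactivators of the receptors 0 passed, with values of 0.31 for Stub1, a ubiquitin ligase gene, and 0.29 for Nrip1, a corepressor gene (limma adjusted p 0.204 and 0.335). Of 7 genes of glucocorticoid metabolism 0 passed, with a median of -0.02 and values of 0.20 for Serpina6 and -0.16 for Abcb1b. Of 20 genes of ERBB and MAP kinase feedback 0 passed (median -0.06), with -0.29 for Dusp16 and 0.21 for Mapk14. Of 16 immediate early genes 0 passed (median -0.14), and the lowest p belonged to Ccn1, given above, and Myc, at -0.37. Of 17 clock genes 0 passed (median -0.07), with 0.17 for Cry2 and 0.70 for Npas2, and of 29 relatives of the 10 genes 0 passed (median -0.02), with 0.23 for Akt1 and -0.15 for Tsc22d2. These lists share some genes, and members not named in the array's annotation were not analysed here.

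**Figure D5:**
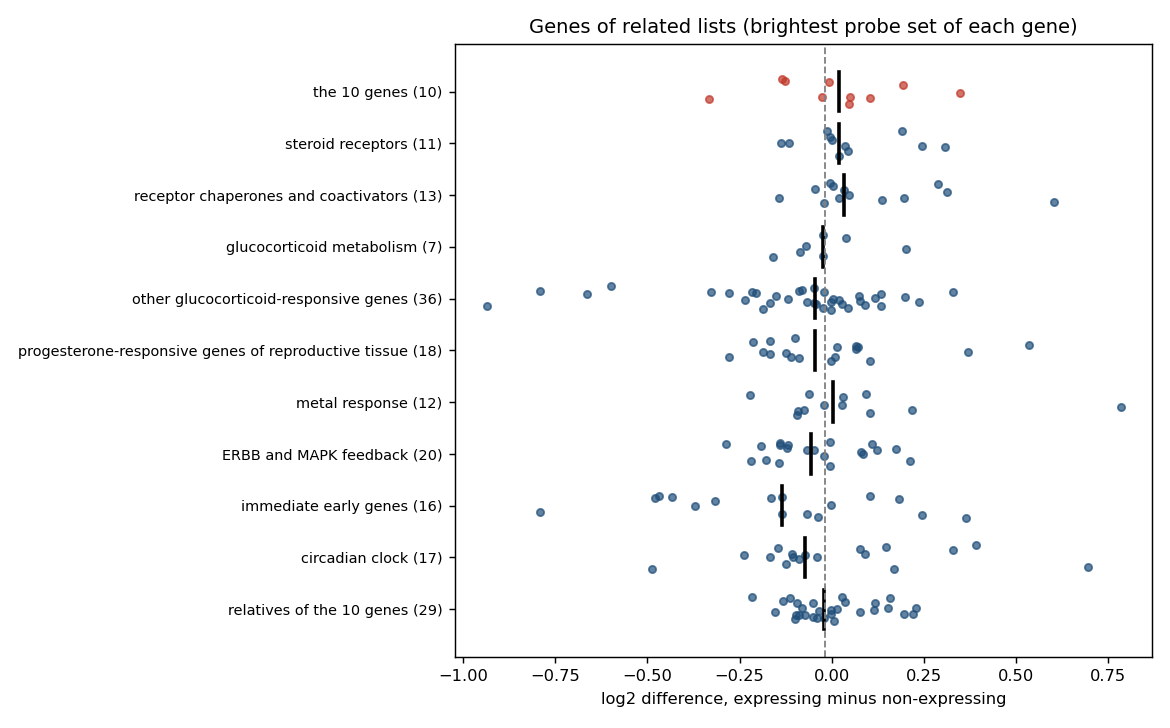
Log2 difference, expressing minus non-expressing, for the brightest probe set of each gene in the 10 genes (red) and in related lists (blue), with the number of measured genes in brackets, list medians as black lines and the median of all genes (-0.02) as a dashed line. No point passed the test, and the list medians lie between -0.14 and 0.03.

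Some measures differed between the groups beside these genes. The array's controls for 18S ribosomal RNA averaged 8.07 to 8.50 in the expressing and 9.57 to 10.31 in the non-expressing arrays, and the difference between the 3′ and 5′ probes of beta-actin was 1.23 ± 0.05 and 1.38 ± 0.07 (SD, n = 3 each), both without overlap (two-sided exact permutation p = 0.1, which is the lowest this design can give, and 0.25 adjusted over 15 measures). Mean levels of the lists of atrial (9 genes), fibroblast (8), endothelial (8) and Schwann cell genes (5) were higher in the expressing arrays without overlap, by 1.37, 0.21, 0.15 and 0.19 (exact permutation p = 0.1 each, two-sided, 0.25 adjusted). The median differences of their genes were 0.30, 0.21, 0.06 and 0.01, and the largest single ones 3.89, 0.33, 0.73 and 0.88. In the atrial list 3 genes and in the endothelial list 2 were lower. Except in the fibroblast list, the means thus do not describe a shift of the whole list. Those of the cardiomyocyte, smooth muscle, macrophage, lymphocyte, neutrophil, adipocyte, red cell and mesothelium lists overlapped, with exact permutation p from 0.2 to 0.9. The 10 cardiomyocyte genes were at a mean of 14.0 to 14.1 in the 6 arrays, as in heart muscle, and the atrial list differed although the labels give the ventricular apex. The titles of the expressing arrays share 1 prefix and those of the others have 2, so a batch marked by the prefix and the group cannot be told apart. Among the non-expressing arrays, replicate 1 has a prefix of its own and replicates 2 and 3 share the other. The spread within that group thus runs across 2 prefixes. The part of these measures in the values of the 10 genes was not tested.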

How the data were processed

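The authors' deposited table holds log2 expression values, 1 for each probe set and array, a scale inferred from their range. Per the submitters' processing notes, RMA and Partek 6.6 were used, and their roles and settings are not given there. Per the labels, 500 ng of total RNA was amplified with the MessageAmp Premier kit and labelled with biotin. Once sorted, the 6 arrays' values lay within 0.155 of each other, so a change common to all genes would not show.

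Of 45101 probe sets 64 controls were left out. The groups were compared with limma 3.58.1 in R 4.3.3 (lmFit, eBayes, two-sided, Benjamini-Hochberg, threshold 0.05) over 45037 probe sets, with 4.48 prior and 4 residual degrees of freedom, and over 18193 genes by their probe set with the highest mean, with 3.83 prior degrees of freedom. Intervals are moderated 95% intervals. Control and cell type measures were compared by exact permutation.

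The genes and lists were chosen with earlier results of these data known. All 30 probe sets are reported; from each list up to 4 genes past the threshold were to be named or, where none passed, the 2 with the lowest p, with Pgr, Nr3c1, Nr3c2, Per1 and Klf15 always. The fit was checked on simulated data only for recovering the mean of a planted difference, which does not bear on how often a difference is called. Replicates were numbered in record order, so a number pairs no samples. Alternatives were a filter on dim probe sets, median scaling, cyclic loess, an intensity trend with a robust prior, ordinary statistics, array weights, a random block for the title prefix with statmod 1.5.0 (correlation 0.117 over probe sets), leaving out each array, other choices of probe sets for a gene and a threshold of 0.1.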

Additional observations from a re-analysis of the deposited data

How the results depend on the processing

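No probe set of the 10 genes passed under any alternative run, in the fit over probe sets or over genes, the threshold of 0.1 included, so the count of 0 held throughout. Of 382 values of single probe sets under the alternatives, 350 kept their sign and 32 changed it. The 350 include values that could not change. The filter on dim probe sets, the intensity trend with a robust prior and ordinary statistics leave the difference itself as it is. Among the probe sets that changed, the largest differences in the main fit were 0.35 for Zbtb16 1439163_at, 0.10 for Errfi1 1416129_at and 0.10 for Hif3a 1447061_at. The sign changed in Hif3a 1421572_at with cyclic loess (0.0056), in Klf9 1452723_at and Mt1 1422557_s_at with array weights (0.034 and 0.074), and in Zbtb16 1419874_x_at and Dusp1 with a random block for the title prefix (0.00084 and 0.011). Leaving out 1 array changed the sign in 16 probe sets, with these ranges: Fkbp5 (1416125_at from -0.0017 to 0.12), Tsc22d3 (1425557_x_at from -0.070 to 0.020, 1444365_at from -0.086 to 0.061), Zbtb16 (1439163_at from -0.068 to 0.76, 1419874_x_at from -0.40 to 0.38), Klf9 (1428289_at from -0.010 to 0.088, 1436763_a_at from -0.00078 to 0.11, 1436952_at from -0.22 to 0.023, 1452723_at from -0.18 to 0.12), Mt1 (1422557_s_at from -0.14 to 0.16), Errfi1 (1416129_at from -0.21 to 0.48, 1419816_s_at from -0.21 to 0.023), Dusp1 (1448830_at from -0.23 to 0.26), Hif3a (1459052_at from -0.16 to 0.021, 1421572_at from -0.13 to 0.050, 1447061_at from -0.010 to 0.19). The cause was not tested.

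The counts over all features moved more. Over all probe sets, where 6 passed, 31 passed with dim probe sets left out, 37 with an intensity trend and robust prior, 2 with ordinary statistics, 43 with array weights and 53 at the threshold of 0.1, and 0 to 44 with 1 array left out. Over all genes, where 4 passed, the corresponding counts were 19, 17, 1, 23, 26 and 0 to 11. It was 1 with the mean of a gene's probe sets, 2 without _x_at and _s_at probe sets, and 12 with the prior taken from all probe sets, an alternative chosen after seeing the data. Among the listed genes, where 0 passed, 3 passed (the atrial genes Myl4, Myl7 and Sln) with dim probe sets left out, with array weights, at 0.1 and with that prior, and 0 to 3 with 1 array left out. The 3 arrays in each group and the spread between them limit what can be seen in Zbtb16, Errfi1 and Sgk1.

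No paired analysis was possible because the labels number no replicates across the groups.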
